A study of Mus musculus with 6 samples.

Results

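The genes described here are often read as a picture of mineralisation and of the osteoblast, the cell that lays down bone: Mgp, Tmem119, Runx2, Sp7, Alpl, Spp1, Ibsp, Enpp1, Ank and Postn. They were chosen by gene symbol and are 10 of the 17830 genes named on the array, read by 13 of its 25697 probes. The array lists Mgp under its older name Mglap and Alpl under Akp2. Mgp and Tmem119 entered the set because they were among the largest falls of the same comparison, so their values are given as a description without a test. The other 8 were added for their known roles.

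The samples were STHdh cells, a mouse line derived from striatal precursors and kept growing by an immortalizing gene. Foxp1, which belongs to the forkhead family of transcription factors, had been transfected into the cells of 3 samples. The 3 controls are called wild-type, and their titles carry the name of the plasmid pcDNA, so whether they received an empty plasmid is not settled by the labels. Each sample was read on 1 Illumina beadchip from biotin-labelled total RNA, and the labels do not tell whether cultures were separate. The p-values therefore cover the spread of these samples alone, and part of it may be technical. A probe counts as detected on an array where its detection p, which sets it against the array's negative controls, is under 0.05. It was kept for testing where at least 3 of the 6 arrays detected it, which left 12136 probes for 8789 genes.

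Mineral forms where phosphate is plentiful and its inhibitors are scarce. Pyrophosphate blocks the growth of crystals: Enpp1 makes it outside the cell from ATP, Ank brings it or its source out of the cell, and the alkaline phosphatase Alpl breaks it down. Mgp, the matrix Gla protein, is a small secreted protein that needs vitamin K-dependent carboxylation and keeps cartilage and vessel walls from calcifying. Runx2 and, after it, Sp7 (osterix) are the transcription factors that commit cells to the osteoblast lineage, and Spp1 (osteopontin), Ibsp (bone sialoprotein) and Postn (periostin) are proteins of the matrix. Tmem119, a single-pass membrane protein, marks microglia in the brain, and it was also described in mouse bone as an osteoblast induction factor, from which its RefSeq synonym obif comes.

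The arrays detected between 45.9% and 48.0% of the probes. Median intensity was 36.6, 38.3 and 64.5 on Foxp1 arrays 1 to 3 and 29.2, 31.8 and 77.0 on control arrays 1 to 3, with the brightest array of either group being replicate 3. Foxp1 itself, the check of the labels, read 4967, 4979 and 5250 in Foxp1-transfected cells and 688, 621 and 1048 in controls. At an adjusted p of 0.05 in limma, 2.73% of the genes were called (240 of 8789): 1.58% were higher and 1.15% lower in Foxp1-transfected cells. All log2 differences below are Foxp1 minus control, on the normalized log2 scale, with n = 3 per group.

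Mgp and Tmem119 were lower on each Foxp1 array than on any control array, as were 14.1% of all genes, while the other members either did not pass the test or were too dim to enter it. Of the 10 genes, 6 were kept (Mgp, Tmem119, Sp7, Spp1, Enpp1 and Ank) and 4 were not (Runx2, Alpl, Ibsp and Postn). Among the 4 kept genes that were chosen by function, 0 of 4 passed an adjusted p of 0.05 with limma, 1 of 4 had an unadjusted p under 0.05 (Spp1), as did 18.5% of all genes, and 1 of 4 passed with the replicate number as a block (Sp7). Beside these counts stand the 2.73% of all genes that passed and the 3.79% that passed with the block.

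Mgp had intensities of 61.5, 50.3 and 104 in Foxp1-transfected cells and 198, 142 and 615 in controls. Its normalized log2 levels were 6.50, 6.28 and 6.53 in Foxp1-transfected cells, a mean of 6.43 ± 0.14 (SD, n = 3), against 8.19, 7.72 and 8.68 in controls, a mean of 8.20 ± 0.48 (SD, n = 3). The control arrays were spread over nearly 1 log2 unit and the Foxp1 arrays lay close together. The log2 difference was -1.76 ± 0.22 (SE), 3.40-fold lower, the second lowest of all genes kept. Between arrays of equal replicate number it was -1.69, -1.45 and -2.16, so the pair with the brightest control gave the largest value and the other pairs gave the same direction.

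How far Mgp went down rests on signals close to background. Its detection p was 0.0263, 0.0476 and 0.0326 on the Foxp1 arrays, just inside the limit of 0.05, and at most 0.00125 on the control arrays. With a limit of 0.01, chosen after the values were seen, 0 Foxp1 arrays and 3 control arrays detected it. Its mean level was then at least 2.49-fold lower in Foxp1-transfected cells, taken against the lowest level among detected probes on each Foxp1 array. That value is an estimate from means and leaves out the spread of the controls, so the fall may be smaller. Without background correction the log2 difference was -1.37, and in the authors' deposited table it was -1.49. With 1 array left out it ran from -2.01 (without control replicate 2) to -1.51 (without control replicate 3). Fewer cells that express a gene and less of its RNA per cell cannot be told apart in these bulk samples.

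Tmem119 behaved more evenly. Its intensities were 113, 91.1 and 143 in Foxp1-transfected cells and 266, 250 and 459 in controls. The normalized log2 levels were 7.23, 6.96 and 6.91 (mean 7.03 ± 0.17, SD, n = 3) in Foxp1-transfected cells, against 8.58, 8.48 and 8.26 (mean 8.44 ± 0.16, SD, n = 3) in controls. The spread within each group was small next to the gap between them. The log2 difference was -1.41 ± 0.13 (SE), 2.66-fold lower, the third lowest of all genes, and the pairs of equal replicate number gave -1.35, -1.53 and -1.35. With 1 array left out it ran from -1.51 to -1.34. It was -1.15 without background correction and -1.23 in the authors' deposited table. All 6 arrays detected Tmem119, with a highest detection p of 0.01.

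**Figure D1:**
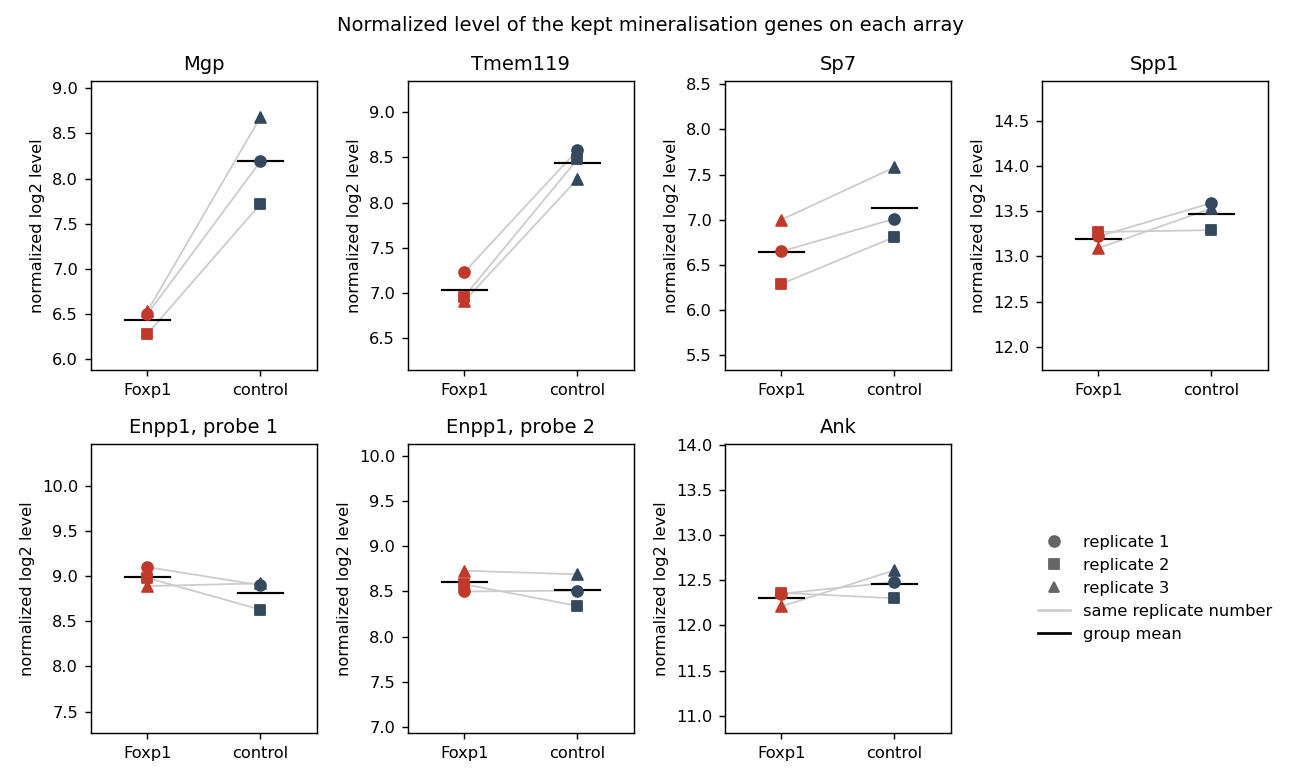
Normalized log2 level of each kept mineralisation gene on the 3 Foxp1 arrays (left, red) and the 3 control arrays (right, blue) (all panels span the same number of log2 units). Grey lines join arrays of equal replicate number and black bars are group means. Mgp and Tmem119 show a gap between the groups, and Sp7 is lower in each pair but overlaps between groups. Spp1 is slightly lower, with Foxp1 replicate 2 and control replicate 2 nearly equal, and Enpp1 and Ank lie nearly level.

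The 2 transcription factors of the osteoblast lineage differed in whether they could be measured at all. Both probes for Runx2 read between -23.0 and 13.9 on all 6 arrays and were detected on 0 of them, with a lowest detection p of 0.217. Sp7 was detected on all 6 arrays, weakly: its intensities were 70.3, 50.7 and 154 in Foxp1-transfected cells and 77.9, 68.0 and 278 in controls. Its normalized log2 levels were 6.65, 6.29 and 7.0 in Foxp1-transfected cells and 7.01, 6.81 and 7.58 in controls. The groups overlap, because the replicate 3 arrays were high in both.

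The log2 difference of Sp7 was -0.49 ± 0.23 (SE; 95% confidence interval -1.03 to 0.05; limma adjusted p = 0.324). Within pairs of equal replicate number it was -0.36, -0.53 and -0.58, lower in 3 of 3 pairs, although only the replicate 3 arrays stand apart as a pair over all genes. With the replicate number as a block in the limma fit, the SE was 0.09 and the adjusted p 0.0479. Sp7 thus passed the threshold only in the fit with the block, of the 16 fits run, and its adjusted p over the alternatives ran from 0.0479 to 0.660.

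Of the enzymes and the transporter around pyrophosphate, the 2 that supply it were measured well and did not pass, and the 1 that destroys it was not measured. Enpp1, the ectoenzyme that makes pyrophosphate, has 2 kept probes. The brighter one read 464, 404 and 606 in Foxp1-transfected cells and 336, 277 and 725 in controls. Its log2 difference was 0.17 ± 0.12 (SE; 95% confidence interval -0.09 to 0.44; limma adjusted p = 0.469). The other Enpp1 probe gave 0.09 ± 0.12 (95% confidence interval -0.18 to 0.37; limma adjusted p = 0.736), in the same direction. These intervals leave room for a rise of up to 1.36-fold and 1.29-fold.

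Ank, the membrane protein that brings pyrophosphate or its source out of the cell, read 4716, 4465 and 6098 in Foxp1-transfected cells and 4239, 3823 and 9013 in controls. On the normalized log2 scale its levels were 12.35, 12.36 and 12.21 in Foxp1-transfected cells and 12.48, 12.30 and 12.61 in controls, so the groups overlap. The log2 difference was -0.16 ± 0.11 (SE; 95% confidence interval -0.41 to 0.10; limma adjusted p = 0.498), which leaves room for a level up to 1.33-fold lower. Alpl, the phosphatase, had intensities between 16 and 50.5 and was detected on 1 of 6 arrays, Foxp1 replicate 1, with a detection p of 0.0489. No difference in Alpl could be measured at this signal.

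Of the matrix proteins, Spp1, an acidic phosphoprotein that binds mineral and also acts as a cytokine, was bright on every array. It read 8985, 8701 and 11038 in Foxp1-transfected cells and 9260, 7977 and 15948 in controls. After normalization its log2 levels were 13.22, 13.27 and 13.09 in Foxp1-transfected cells and 13.59, 13.29 and 13.53 in controls. The groups do not overlap, as for 25.8% of all genes, but Foxp1 replicate 2 and control replicate 2 lie 0.02 apart. The log2 difference was -0.28 ± 0.11 (SE; 95% confidence interval -0.53 to -0.02), 1.21-fold lower, with an unadjusted p of 0.0386 and a limma adjusted p of 0.248. Both probes for Ibsp (intensities between -27.1 and 21.8) and the probe for Postn (between -17.5 and 8.78) were detected on 0 of 6 arrays.

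**Figure D2:**
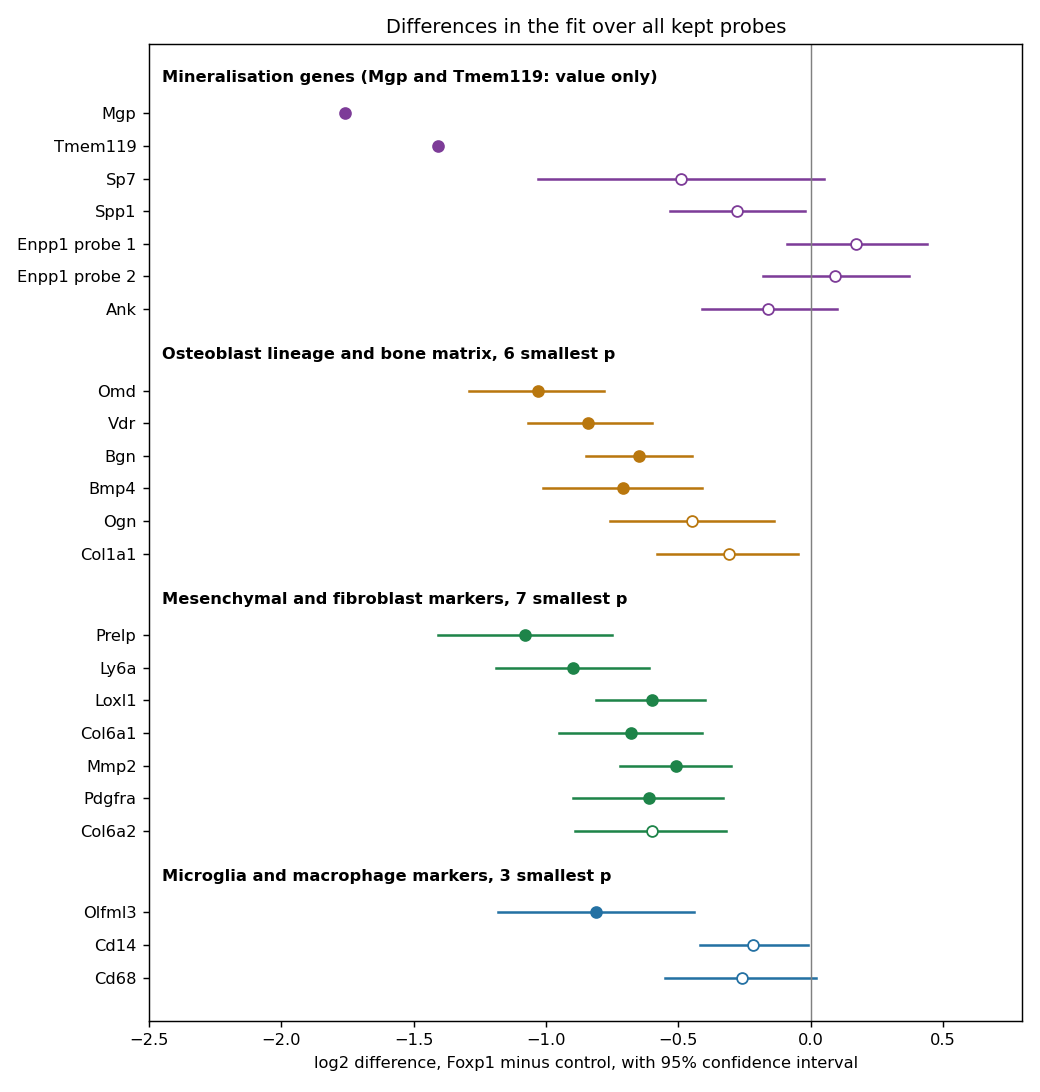
Log2 differences, Foxp1 minus control, of the kept mineralisation genes and of genes from 3 context lists, with 95% confidence intervals. Mgp and Tmem119 are drawn as values alone because they were chosen for these falls, and for the other genes filled points passed an adjusted p of 0.05 and open points did not. The 4 filled osteoblast and bone matrix genes and the 6 filled mesenchymal markers lie between -1.08 and -0.51, and of the 3 microglial markers drawn, those of smallest p, Olfml3 alone is filled.

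Whether the lower Mgp and Tmem119 went with osteoblast genes, with mesenchymal genes at large or with microglial ones was looked at through lists of genes that do not include the 10. These lists were written with earlier results of these data known, so the shares below are a description and not a test. Genes of the osteoblast lineage and bone matrix were kept for 15 of 26 on the array. Of the 15, 0 rose, 4 fell and 11 did not pass with limma. That is 26.7% against 2.73% of all genes. The median log2 difference was -0.20, against -0.002 over all genes, and 12 of 15 were negative, against 50.5% of all genes. Among the 11 not kept were the osteocyte products Dmp1, Mepe and Sost, the osteoblast homeobox factor Dlx5 and the osteocalcin-cluster gene Bglap2, each detected on 0 of 6 arrays and named here after their values were seen. Other genes of these kinds, also named afterwards, were detected on all 6 arrays and did not pass. They were the homeobox factors Msx1 (-0.04 ± 0.09) and Dlx3 (-0.03 ± 0.12) and the osteocyte gene Phex (0.16 ± 0.13).

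The 4 that fell were matrix proteoglycans, a receptor and a morphogen. Omd (osteomodulin), a keratan sulfate proteoglycan of mineralised tissue, had normalized log2 levels of 6.35, 6.26 and 6.25 in Foxp1-transfected cells, against 7.20, 7.51 and 7.27 in controls. Its log2 difference was -1.03 ± 0.11 (SE), 2.05-fold lower (limma adjusted p = 0.00388), and it is dim, being detected on 2 of 3 Foxp1 arrays. Vdr, the vitamin D receptor, stood at 7.99, 7.93 and 8.09 in Foxp1-transfected cells and 8.98, 8.79 and 8.74 in controls (log2 difference -0.84 ± 0.10, 1.78-fold lower, limma adjusted p = 0.00821). Bgn (biglycan), a small proteoglycan that binds collagen, fell by 0.65 on the log2 scale (adjusted p = 0.0105), and Bmp4, a bone morphogenetic protein, fell by 0.71 (adjusted p = 0.0347). Of the 2 other kept probes for Vdr 1 passed and 1 did not, so its probes disagree.

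The list held genes of bone matrix that are shared with other connective tissue, and these did not all move. Col1a1, the main collagen chain of bone, differed by -0.31 ± 0.11 (adjusted p = 0.209), Sparc (osteonectin) by -0.10 ± 0.10 (adjusted p = 0.623; its dimmer probe by -0.58 ± 0.18, adjusted p = 0.146), and Ogn (osteoglycin) by -0.45 ± 0.13 (adjusted p = 0.132, and 0.0477 with the replicate block). Without Foxp1 replicate 1 or 2, the list's count of 4 was 1 in each fit, and the call that stood there was that of Omd. Over all genes 29 and 28 calls stood in these fits, against 240 with every array. The calls of Vdr (highest adjusted p 0.0711), Bgn (0.0815) and Bmp4 (0.167) were lost without Foxp1 replicate 1 or 2, and that of Bmp4 also without control replicate 1 or 2.

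Of the genes that control phosphate, pyrophosphate and calcification, 16 of 23 on the array were kept. With limma 0 of the 16 passed an adjusted p of 0.05 and 4 had an unadjusted p under 0.05, as did 18.5% of all genes. Negative differences were 11 of 16 and the median was -0.11. Gas6, which like Mgp is a vitamin K-dependent Gla protein, came nearest (-0.42 ± 0.09, adjusted p = 0.0626), and it passed in 2 of the alternatives (lowest adjusted p 0.0452). Anxa6, a calcium-binding annexin, differed by -0.32 ± 0.10 (adjusted p = 0.147). Of 16 cartilage genes 5 were kept, 0 passed with limma and 3 had an unadjusted p under 0.05, against the same 18.5% of all genes. They were mixed, with 3 of 5 positive and a median of 0.29. Sox5, a chondrocyte transcription factor, differed by -0.75 ± 0.17 (adjusted p = 0.0659, and 0.0469 with the stricter detection limit). Col2a1, the collagen of cartilage, differed by 0.36 ± 0.10 (adjusted p = 0.124, and 0.0407 with its probes averaged). That probe is dim and was kept through the Foxp1 arrays, being detected on 3 of them and on 1 control array. The other kept Col2a1 probe, also dim, passed (0.68 ± 0.14, adjusted p = 0.0477).

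Mesenchymal and fibroblast markers were kept for 26 of 35 on the array (74.3%), and 0 rose, 6 fell and 20 did not pass. That is 23.1% of the kept genes, against 2.73% of all genes, and 24 of 26 differences were negative with a median of -0.19. Differences were mostly negative in the lists of other cell types too: 4 of 5 microglial (median -0.22), 3 of 3 pericyte and smooth muscle (-0.25), 3 of 4 astrocyte (-0.27) and 4 of 5 neuron and striatal markers (-0.14). Of these, the striatal Ppp1r1b was detected on 0 Foxp1 and 3 control arrays, and the astrocyte marker Aldoc on 1 and 3. Both were kept through the control arrays, which favours a negative sign. No list was tested against another, and all were written with earlier results of these data known. Prelp, a leucine-rich proteoglycan that anchors basement membranes, stood at normalized log2 levels of 9.77, 9.83 and 9.90 in Foxp1-transfected cells and 10.82, 10.70 and 11.22 in controls (-1.08 ± 0.14, 2.12-fold lower, limma adjusted p = 0.00999). Ly6a (Sca-1), a surface marker of mesenchymal progenitors, stood at 8.96, 8.86 and 9.19 in Foxp1-transfected cells and 9.73, 9.95 and 10.03 in controls (-0.90 ± 0.13, 1.87-fold lower, limma adjusted p = 0.0125). For both genes the groups lie clearly apart. Loxl1, which cross-links elastin, fell by 0.60 (adjusted p = 0.0174), and Col6a1, a chain of collagen VI whose other kept probe did not pass, fell by 0.68 (adjusted p = 0.0277).

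The other 2 that passed, named after their values were seen, were the gelatinase Mmp2 (-0.51 ± 0.09, adjusted p = 0.0335) and the platelet-derived growth factor receptor Pdgfra (-0.61 ± 0.12, adjusted p = 0.0471, and 0.0524 with the replicate block). Col6a2, the partner chain of Col6a1, lay at the limit with -0.60 ± 0.13 (adjusted p = 0.0502, and 0.0405 with the block). Others of the same list did not pass and had values near 0, among them the mesenchymal factors Prrx1 (0.00 ± 0.12) and Twist1 (-0.04 ± 0.11), and the proteoglycan Dcn (-0.11 ± 0.16). The hyaluronan receptor Cd44, named after its values were seen, went the other way: its brightest probe differed by 0.31 ± 0.10 (adjusted p = 0.177), and of its 4 other kept probes 1 passed, higher by 0.69 ± 0.12 (adjusted p = 0.0277). The list's count of 6 changed when single arrays were left out, as did the count of 240 over all genes. It was 0 without Foxp1 replicate 1 or 2 (29 and 28 over all genes) and 2 without Foxp1 replicate 3 (90). Without control replicate 1 or 2 it was 2 (93 and 75 over all genes), and without control replicate 3 it was 6 (265). The list's median stayed between -0.25 and -0.15. Without both replicate 3 arrays, which was tried once the values were known, 2 fell and the median was -0.14.

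Microglial markers were mostly below detection. Of 33 microglia and macrophage markers on the array 5 were kept (15.2%). The 10 that most define the cell type (Aif1, Cx3cr1, Itgam, Csf1r, P2ry12, Tyrobp, Ptprc, Adgre1, C1qa and Spi1) are read by 16 probes, and 0 of the 10 were kept. Over the 96 pairs of such a probe with an array, 2 were detected (2.08%), where a detection limit of 0.05 alone gives 5% by its definition. Both were C1qa, a complement chain, on the replicate 3 array of each group, at intensities of 97.2 in Foxp1-transfected cells and 92.9 in controls. The mean normalized log2 level over the 16 probes was 5.26 to 5.35 on Foxp1 arrays and 5.25 to 5.29 on control arrays.

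Of the 5 kept microglial markers, 1 fell (20.0%, against 2.73% of all genes): Olfml3, a secreted olfactomedin-domain protein. It read 80.5, 69.8 and 162 in Foxp1-transfected cells and 133, 109 and 349 in controls (-0.81 ± 0.16, 1.76-fold lower, limma adjusted p = 0.045). That call was lost in each of the 6 fits without 1 array (adjusted p from 0.0586 to 0.174). The other 4 did not pass, among them the lipopolysaccharide co-receptor Cd14 (-0.22 ± 0.09, adjusted p = 0.250), the lysosomal protein Cd68 (-0.26 ± 0.12, adjusted p = 0.305) and the transcription factor Sall1 (0.03 ± 0.15, adjusted p = 0.954). The dimmer kept probe for Sall1 differed by -0.35 ± 0.09 and did not pass either (adjusted p = 0.0951). Tmem119 was thus measured, at both its higher and its lower level, in cells where the defining microglial markers were at or near the array's background. Most of the mesenchymal markers were detected in the same cells (26 of 35 kept). Over all genes 8789 of 17830 were kept, and of the microglial markers 5 of 33. Whether Tmem119 and the mesenchymal genes belong to 1 program was not tested.

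**Figure D3:**
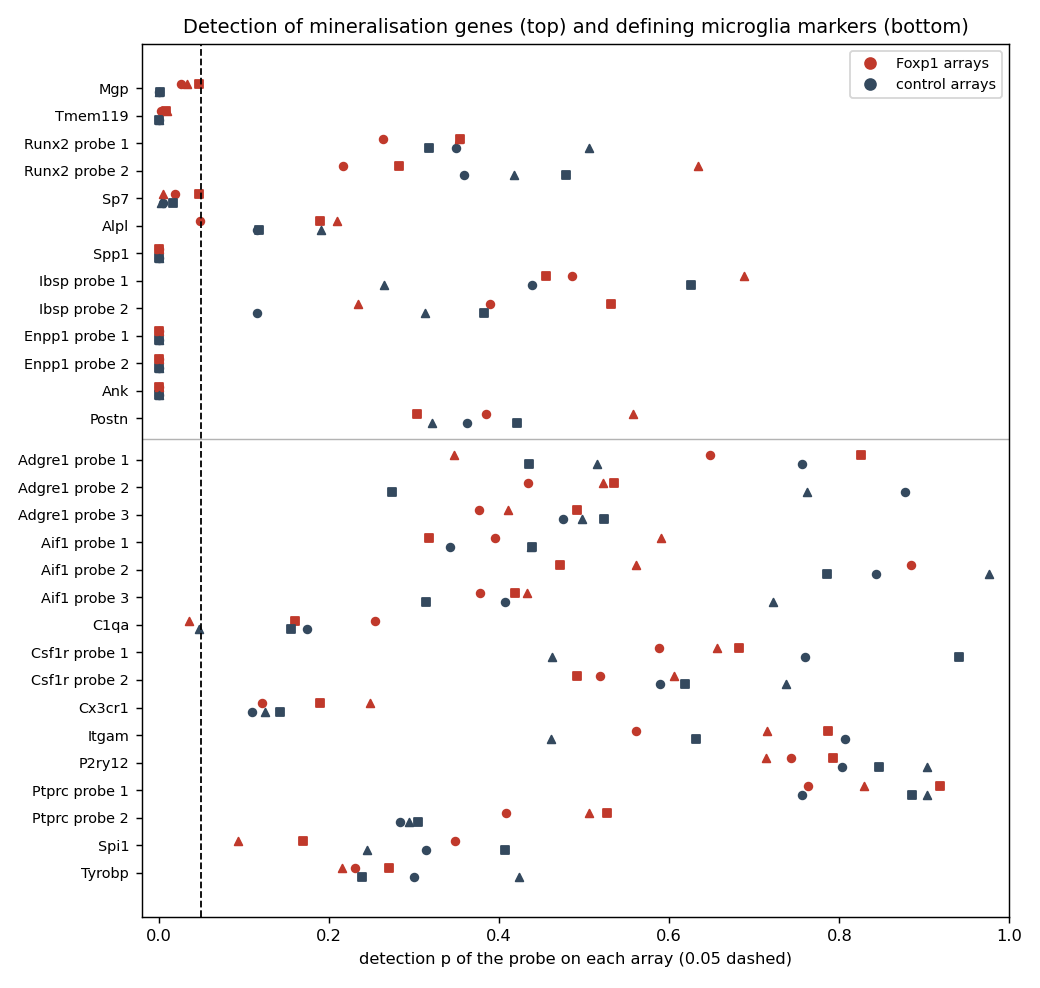
Detection p of each probe on the 3 Foxp1 arrays (red) and 3 control arrays (blue), with marker shape giving the replicate number, for the 13 probes of the mineralisation genes (top) and 16 probes of 10 defining microglia markers (bottom). Values left of the dashed line at 0.05 count as detected. Mgp on the Foxp1 arrays lies just left of that line, and of the microglia markers only C1qa crosses it, on the replicate 3 arrays.

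Markers of other cell types stood as follows. Of the pericyte and smooth muscle markers, cells in which Mgp is abundant in vessels, 3 of 13 were kept and 0 passed with limma, with 0 at an unadjusted p under 0.05. The 2 nearest were Tagln, a smooth muscle actin-binding protein (-0.25 ± 0.11, adjusted p = 0.282), and the proteoglycan Cspg4 (-0.26 ± 0.13, adjusted p = 0.331). The third kept gene was Acta2, smooth muscle actin, whose brightest probe read between 21154 and 24111 and did not pass, while 1 of its 3 dimmer probes did (-0.49 ± 0.10, adjusted p = 0.0477). Endothelial markers were kept for 0 of 6. Of the astrocyte markers 4 of 8 were kept, 0 passed and 2 had an unadjusted p under 0.05, against 18.5% of all genes. They were the glutamate transporter Slc1a3 (-0.61 ± 0.18, adjusted p = 0.137, and 0.0455 with the replicate block) and the glycolytic enzyme Aldoc (-0.52 ± 0.20, adjusted p = 0.233).

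The labelled striatal origin showed in few markers: 5 of 17 neuron and striatal markers were kept. Of the 5, 1 fell (20.0%, against 2.73% of all genes) and the other 4 did not pass. The 1 that fell was Stmn2, a microtubule regulator of growing axons (-0.65 ± 0.12, adjusted p = 0.032). The call of Stmn2 was lost without Foxp1 replicate 1 or 2 or control replicate 1 or 2 (highest adjusted p 0.159). The dopamine receptor Drd1, the GABA-synthesising Gad1 and Gad2 and the striatal factor Bcl11b, named after their values were seen, were detected on 0 of 6 arrays. Among the kept markers, also named afterwards, Map2 was detected on all 6 arrays (-0.09 ± 0.12, adjusted p = 0.748). The dopamine receptor Drd2 was detected on 5 of 6 (0.06 ± 0.28, adjusted p = 0.936). The striatal marker Ppp1r1b was detected on the 3 control arrays alone (-0.45 ± 0.13, adjusted p = 0.124).

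**Figure D4:**
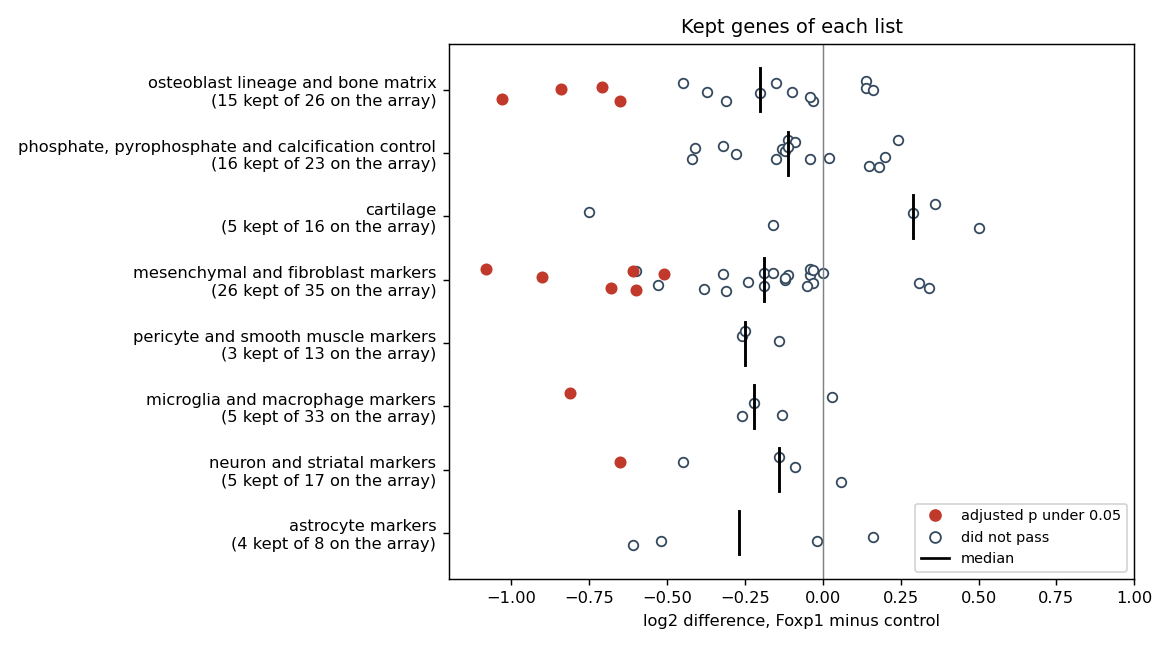
Log2 difference, Foxp1 minus control, of each kept gene of 8 lists, with list medians as black bars, filled points for an adjusted p under 0.05 and open points for genes that did not pass. Vertical scatter within a list has no meaning. Filled points lie to the left of 0: 4 of 15 in the osteoblast and bone matrix list, 6 of 26 in the mesenchymal list, and 1 of 5 in both the microglial and the neuron and striatal lists. Over all genes 2.73% passed.

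The genes whose profile over the 6 arrays lay nearest to that of Mgp were found from the root mean square difference of log2 levels after each gene's own mean was subtracted. Of the 8788 other kept genes, the 5 nearest were the translation factor subunit Eif3h (0.35 log2 units away), the carbonyl reductase Cbr2 (0.37), the proteoglycan Prelp (0.38), the corepressor Tle2 (0.38) and the calcium sensor Ncald (0.38). Tmem119 stood eighth, at 0.41. Nearest to Tmem119 were the malate dehydrogenase Mdh2 (0.11), Omd (0.24), the small GTPase Rab7b (0.25), the coactivator Ncoa1 (0.28) and the microtubule-associated Mtus2 (0.28), with Mgp in place 40. So 1 gene of the mesenchymal list and 1 of the bone matrix list stood among these 10, and the measure, taken over 6 arrays that include the group difference, picks any gene that is lower by a like amount.

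Promoter sequence was read for the 10 genes called lower on the bone matrix and mesenchymal lists, since the transfected gene encodes a forkhead factor. RefSeq promoters of build GRCm38.p6, 250 bases before to 50 after a start, were searched on both strands for the forkhead-type letters TGTTTAC and TGTTTGC, which do not overlap each other. Either stood in 8.48% of all 32851 windows. Of the 10 genes that fell on the bone matrix and mesenchymal lists, 7 had a promoter there, and 2 of their 7 windows held a match: Col6a1 (TGTTTAC, on the strand opposite to the gene) and Omd (TGTTTGC, after the start). Of the 10 mineralisation genes 7 had promoters in the table, and 0 of their 10 windows held a match. Promoters of Mgp, Tmem119 and Sp7 were not analysed here. The 250 bases before the start of Col6a1, chr10:76726045-76726294 on the minus strand, are shown as the 1 promoter of a gene that fell with the match before its start. The match is in capitals, its first base 211 bases before the start, and it is a description of letters and not a binding site.
Col6a1: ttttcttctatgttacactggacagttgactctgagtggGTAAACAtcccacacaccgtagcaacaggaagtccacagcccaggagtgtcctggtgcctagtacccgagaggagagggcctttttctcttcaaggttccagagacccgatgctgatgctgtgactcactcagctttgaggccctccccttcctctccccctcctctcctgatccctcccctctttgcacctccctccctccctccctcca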

How the data were processed

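Per the file headers, the deposited table of unnormalized values holds an intensity and a detection p-value for each of 25697 probes and 6 arrays. GenomeStudio is named in the submitters' processing notes, with no version. Between 29.5% and 31.6% of the deposited intensities on an array were below 0, so a background had been subtracted by the authors. The authors' second deposited table was read as log2, because each column follows its own array (r of deviations from the probe mean at least 0.926, at most 0.514 for another array). How it was normalized is not given in the sources used here. It served as an alternative.

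The neqc function of limma 3.58.1 (R 4.3.3, offset 16) corrected the intensities, made their quantiles equal and took log2. Groups were compared with lmFit and eBayes over the 12136 kept probes, 2-sided, with Benjamini-Hochberg adjustment over them. A gene is its kept probe of highest mean, and errors of differences are standard errors. For dim probes this offset makes differences smaller. The fit was tested on simulated data. Symbols were updated through RefSeq (GRCm38.p6, names only): 17548 probes carried a current symbol and 7082 a synonym of 1 gene. The files name no genome build.

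The 10 genes and the lists were chosen with earlier results of these data known. Named genes are the 10, up to 4 per list past the threshold (otherwise the 2 of smallest p), the 10 defining microglial markers and the 5 nearest profiles. Others were named after their values were seen, and 1 list member is not reported here by name. Replicate numbers 1 to 3 come from the titles. Arrays of equal number deviated together from their group means (r = 0.257, 0.115 and 0.401), but for numbers 1 and 2 unequal pairs did so as well (r = 0.121 and 0.151). The main fit took no account of the number, which entered as a block only in an alternative fit. Any pairing comes from the data and not from the labels. The number of arrays limits precision. Alternatives changed the background correction, scaling, source table, detection filter, probe rule, block and arrays used.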

Additional observations from a re-analysis of the deposited data

How the results depend on the processing

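Over 15 alternatives the 6 kept mineralisation genes kept the sign of their difference. Mgp ran from -2.01 to -1.37 and Tmem119 from -1.51 to -1.15. The count of genes chosen by function that passed was 0 but for the replicate block, where it was 1 (Sp7). The block brought the count over all genes to 333, against 240, and it ended the call of Pdgfra, made calls of Ogn, Col6a2 and Slc1a3, and changed no other call among the kept genes of the lists. With 1 array left out the count over all genes ran from 28 to 265, that over all lists from 1 to 11 (12 with every array), that of the bone matrix list from 1 to 4, of the mesenchymal list from 0 to 6 and of the microglial list from 0 to 0. Each such fit also rests on fewer arrays. Without both replicate 3 arrays the mesenchymal count was 2, against 6. With no detection filter the count over all lists was 7 and that of microglial markers 0, with a microglial median of 0.03 against -0.22. More genes are then tested. The cause of the other changes was not tested. Signals near background limit Mgp in Foxp1-transfected cells, Sp7 and Omd, and give no value for Runx2, Alpl, Ibsp and Postn.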
